A study of Mus musculus with 23 samples.

Results

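Hippocampal RNA of 23 male mice of the strain C57BL/6JNIA was examined for the brakes of the cell cycle, the genes of the cyclin-dependent kinase inhibitors, p53 and the p53 regulator Mdm2. The genes were taken by name, through the platform annotation of the array: Cdkn1a, Cdkn1b, Cdkn1c, Cdkn2a, Cdkn2b, Cdkn2c, Cdkn2d, Trp53 and Mdm2. Of these 9 genes 8 had a probe set of their own, with 10 probe sets among the 12488 on the array, which names 8252 genes by 1 symbol. Trp53, the gene of p53 itself, had none, and 2 probe sets are annotated to its pseudogene, Trp53-ps. One group was of 15-month-old mice (n = 14) and the other of 2-month-old mice (n = 9), with 1 array per mouse. Mice of both ages carried no named allele or drug, were housed in groups and had gone through Morris water maze training, a spatial learning task, before they were killed by cervical dislocation. The comparison, 15 months minus 2 months, asks which hippocampal transcripts differ between middle-aged and young animals.

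Cyclin-dependent kinases push a cell through its division cycle, and small inhibitor proteins hold them back. The inhibitors of the CIP/KIP family (Cdkn1a, Cdkn1b, Cdkn1c) bind many cyclin and kinase complexes, whereas those of the INK4 family (Cdkn2a to Cdkn2d) bind the kinases that pair with D-type cyclins. The transcription factor p53 switches on Cdkn1a and Mdm2 after DNA damage, and the Mdm2 protein marks p53 for degradation. Hippocampal neurons mostly no longer divide, and both families are also known as markers of cell cycle exit and, for Cdkn1a and Cdkn2a, of cellular senescence.

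The values are MAS5 signals, the brightness of a probe set on a linear scale, and several of these genes were dim. Probe sets were tested if they were brighter than 40% of the 12422 non-control probe sets, which corresponds to a signal of 91.7. Of the 10 probe sets 6 passed, for the 5 genes Cdkn1a, Cdkn1c, Cdkn2c, Cdkn2d and Mdm2. The 4 probe sets of Cdkn1b, Cdkn2a and Cdkn2b did not. As a yardstick of what little or no transcript looks like, 48 probe sets of 34 genes of other organs (milk, lens, sperm, liver and pancreas proteins among them) had a median signal of 24.9, with quartiles of 10.4 and 56.7, and 8 of them passed the filter. Of these 48, 6 and 7 were brighter than the Cdkn1a probe sets, 7 brighter than Cdkn1c and 1 brighter than Mdm2. Signals of different probe sets do not measure which gene has more transcript, so brightness is used here only to say what could be detected.

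The array medians lay between 154 and 188. The array of 15-month replicate 13 correlated less with the others than any other array did. Of 22 hippocampal neuron markers on the array 18 were bright enough to be tested. Ttr, the transthyretin gene of the choroid plexus, spanned 149.9 to 9921.9 at 15 months and 68.9 to 9134.2 at 2 months, so that the tissue taken held very different amounts of choroid plexus transcript. In whole tissue, more cells of a type and more RNA per cell cannot be told apart.

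None of the 6 tested probe sets passed the comparison of the ages. With limma, a moderated linear model fitted over all 7453 tested probe sets, 28 of them or 0.376% were called at an adjusted p under 0.05, and the count among the cell cycle inhibitors and Mdm2 was 0 of 6. At an unadjusted p under 0.05 it was 1 of 6, against 12.4% of all tested probe sets. When every non-control probe set was fitted without a filter, 0 of the 10 were called, against 0.217% of all, and 1 of 10 had an unadjusted p under 0.05, against 9.59% of all. The Mann-Whitney test also called 0 of 6. The 1 that stood out was a probe set of Cdkn1a, and it did so in only some of the older mice.

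**Figure D1:**
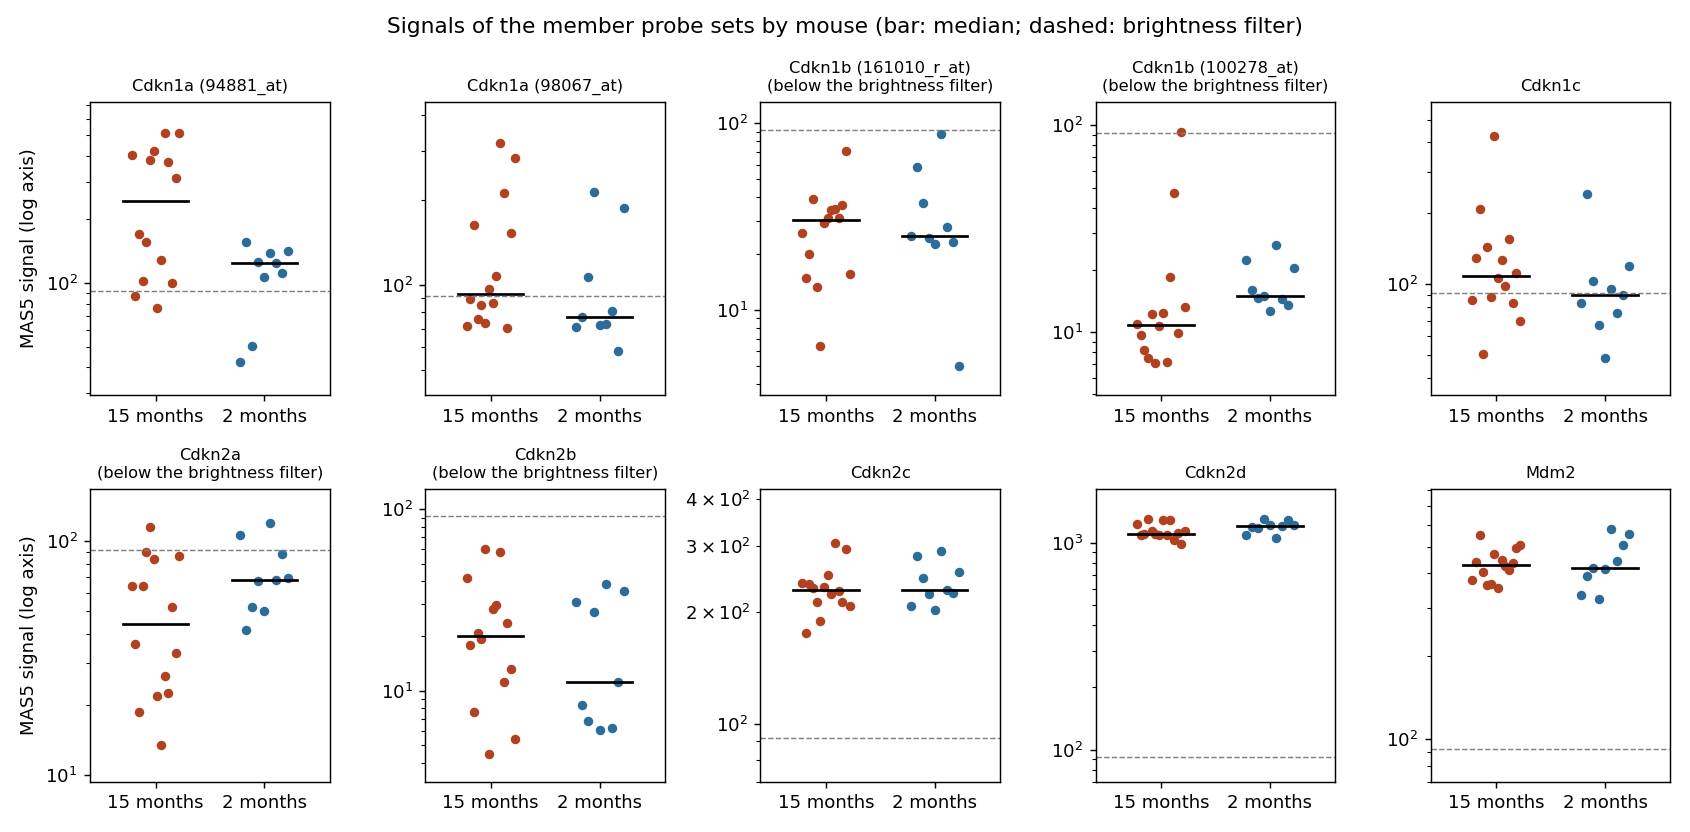
Signal (MAS5, log axis) of each of the 10 probe sets in each mouse, at 15 months (n = 14, left) and 2 months (n = 9, right), with bars at the medians and a dashed line at the signal of 91.7 above which probe sets were tested. Cdkn1a (94881_at) falls into 2 ranges at 15 months, while Cdkn2c, Cdkn2d and Mdm2 overlap between the ages.

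Cdkn1a encodes p21, the inhibitor through which p53 halts the cycle. It was measured by 2 probe sets, and RefSeq gives it 2 transcription starts on chromosome 17. The 250 bases before each are shown here because the first start carries matches to the p53 half-site and the second to the GC box, the letters GGGCGG bound by factors of the Sp family. Both are on the + strand of GRCm38.p6, from RefSeq, with the matches in capitals.
Cdkn1a upstream start, chr17:29090729-29090978, p53 half-sites in capitals: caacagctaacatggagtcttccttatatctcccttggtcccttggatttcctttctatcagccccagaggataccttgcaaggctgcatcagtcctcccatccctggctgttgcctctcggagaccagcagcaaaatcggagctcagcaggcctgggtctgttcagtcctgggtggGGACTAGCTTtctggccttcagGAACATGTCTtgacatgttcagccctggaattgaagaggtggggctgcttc
Cdkn1a downstream start, chr17:29093519-29093768, GC boxes in capitals: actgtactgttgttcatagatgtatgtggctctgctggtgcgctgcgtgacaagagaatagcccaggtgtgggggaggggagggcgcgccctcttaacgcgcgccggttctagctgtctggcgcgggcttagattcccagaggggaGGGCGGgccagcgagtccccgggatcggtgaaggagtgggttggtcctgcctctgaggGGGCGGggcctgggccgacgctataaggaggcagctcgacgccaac
Searched on both strands, the p53 half-site had 2 matches in the first window and 0 in the second, and the GC box 0 and 2. The half-site AGAACA of the glucocorticoid receptor had 0 matches in both. Of all 32851 such windows from RefSeq, 7.13% held a p53 half-site, 32.7% a GC box and 16.1% the AGAACA half-site. The matches describe these letters only, and the array does not tell transcripts from the 2 starts apart here.

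The brighter probe set of Cdkn1a, 94881_at, ranged from 75.9 to 514.9 at 15 months with a median of 243.6, and from 42.2 to 156.7 at 2 months with a median of 124.6. At 15 months the mice fell into 2 separate ranges. The signal was 402.7 in replicate 1, 383.0 in replicate 6, 419.7 in replicate 7, 514.9 in replicate 10, 375.0 in replicate 11, 315.7 in replicate 13 and 512.0 in replicate 14. The other 7 mice of 15 months lay between 75.9 and 171.5, which overlaps the range at 2 months. Altogether 8 of 14 mice of 15 months were above the highest mouse of 2 months and 0 were below the lowest.

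Averaged over each age, Cdkn1a was at 267 ± 165 at 15 months (SD, n = 14) and 111 ± 39.8 at 2 months (SD, n = 9). The log2 change was 0.98 ± 0.32 (SE), a 1.97-fold difference with a 95% interval of 1.24 to 3.12. It did not pass over all probe sets (unadjusted p = 0.00577, limma adjusted p = 0.213), and its adjusted p lay between 0.125 and 0.395 over 36 other settings. On the log2 scale the SD between mice was 0.95 at 15 months and 0.56 at 2 months.

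The dimmer probe set of Cdkn1a, 98067_at, showed a different pattern. It spanned 70.2 to 319.3 at 15 months with a median of 92.95, and 58.1 to 213.6 at 2 months with a median of 77.2, so the ages overlapped almost entirely. Its log2 change was 0.28 ± 0.25 (95% interval -0.24 to 0.79, adjusted p = 0.694), and 0.17 without 15-month replicate 10. Replicates 10, 14, 11 and 13 were at 319.3, 282.0, 211.8 and 153.2, while replicates 1, 6 and 7, high with the other probe set, were at 71.3, 73.3 and 97.1. Of the 7 mice of 15 months highest with 94881_at 5 were among the 7 highest with 98067_at, beside a median of 3 over all 5680 genes tested. These 5 include replicate 7, whose 97.1 was near the median of 92.95. When both were averaged before the fit, a setting chosen after this disagreement was seen, Cdkn1a had a log2 change of 0.63 (95% interval 0.12 to 1.13, adjusted p = 0.288).

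With the brighter probe set, the mice of 15 months high in Cdkn1a were also the ones high in some of the genes that glucocorticoids induce. Sgk1, a kinase and a standard target of the glucocorticoid receptor, was at 2282.5 to 3276.8 in the 7 mice of 15 months highest in Cdkn1a and at 1307.1 to 1744 in the other 7, against 778.8 to 1280.8 at 2 months. The 7 mice highest in Sgk1 were thus the same 7. Sgk1 passed the comparison of the ages, with a log2 change of 0.97 ± 0.17 (limma adjusted p = 0.00613). Of the 17 glucocorticoid-responsive genes tested 15 had log2 changes above 0, against 45.8% of all genes. At an unadjusted p under 0.05 there were 10 of 17, against 12.4% of genes. The 3 that passed, against 24 of 5680 genes, were Sgk1, Zbtb16 (limma adjusted p = 0.0128) and Rhob (limma adjusted p = 0.033). Zbtb16 and Rhob each shared 4 of the 7 mice. The 7 mice highest in Cdkn1a were also the 7 highest in the mean of the 17 glucocorticoid-responsive genes. Their log2 means were 10.41 to 10.55, against 10.10 to 10.24 in the other 7 and 10.00 to 10.15 at 2 months. The list leaves Cdkn1a out but holds Sgk1, Errfi1, Mt2 and Nfkbia. It was chosen with earlier results of these data known, so its mean and counts are not independent of the single genes named here. Single genes of that list shared between 2 and 7 of the 7 mice, with a median of 5, beside a median of 3 over all 5680 genes tested. Of the 17, 7 shared 6 or more, as did 195 of the 5680 (3.43%), and Errfi1, Mt2 and Nfkbia, named after their values were seen, shared all 7 as Sgk1 did. The other lists examined, of cell types, proliferation and p53 among them, shared 2 to 5 of the 7 in their means.

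**Figure D2:**
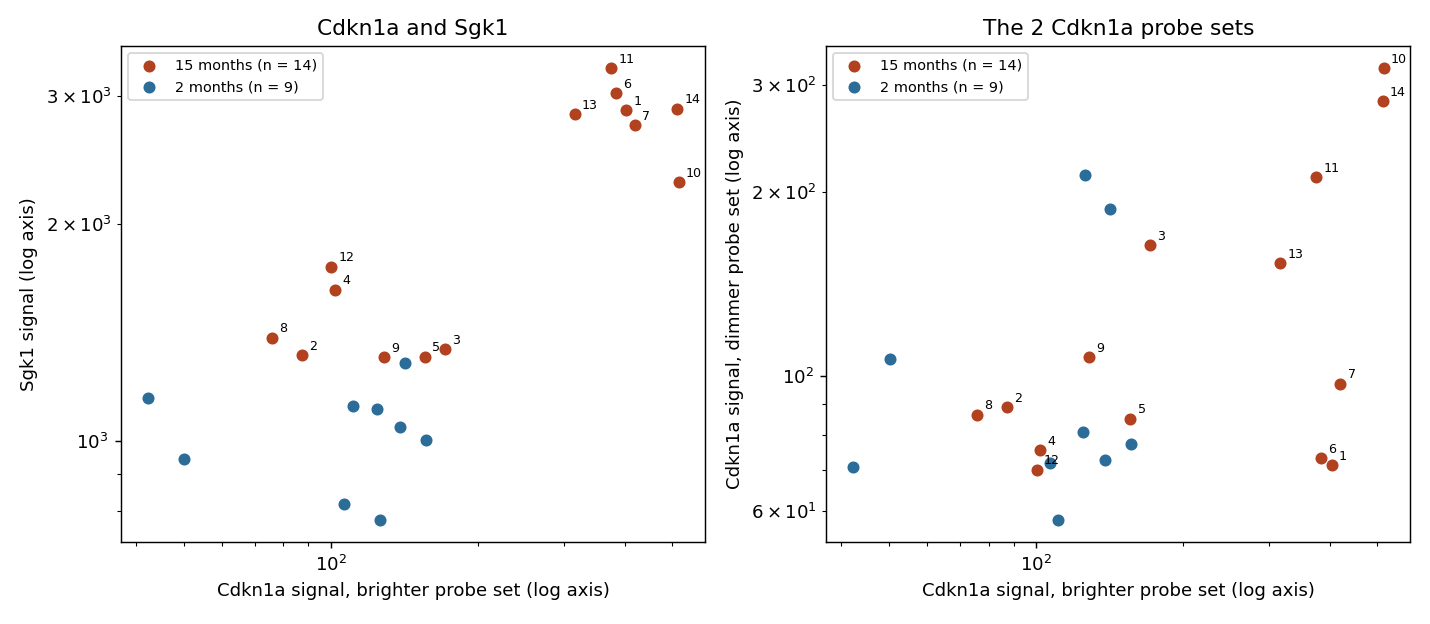
Signal of Cdkn1a probe set 94881_at (x axis, log scale) against Sgk1 (left) and against the dimmer Cdkn1a probe set (right, both log scale), 1 point per mouse with replicate numbers at 15 months. Replicates 1, 6, 7, 10, 11, 13 and 14 stand apart in Cdkn1a and Sgk1, and only some of them are high with the second probe set.

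Within either range no relation of Cdkn1a with these measures passed a test. Each range was cut on the Cdkn1a values and holds 7 mice and only part of their span. Only a strong relation could pass there, so these tests cannot decide whether the measures are related over all mice. Within the 7 mice highest in Cdkn1a, Pearson's r between Cdkn1a and Sgk1 was -0.55 and Spearman's rho -0.50 (exact permutation p of r = 0.213, two-sided). Among the other 7 r was -0.34 and rho -0.39 (exact permutation p = 0.475). With the glucocorticoid list mean r was -0.48 and rho -0.64 in the 7 highest (exact permutation p = 0.270), and r was -0.03 and rho 0.18 in the other 7 (exact permutation p = 0.944). With the p53 target list mean r was -0.28 and rho -0.29 in the 7 highest (exact permutation p = 0.576), and r was 0.26 and rho 0.11 in the other 7 (exact permutation p = 0.550). The dimmer Cdkn1a probe set gave r = 0.52 and rho = 0.43 in the 7 highest (exact permutation p = 0.245), and r = 0.64 and rho = 0.36 in the other 7 (exact permutation p = 0.135). These 8 tests form 1 family, and none passed after Benjamini-Hochberg adjustment, the lowest adjusted p being 0.54. The ranges were drawn after the values were seen, so no test was made between them, and the part of the glucocorticoid genes in the Cdkn1a signal was not tested. After each age mean was removed, the genes most like Cdkn1a over 23 mice were Spsb1 (r = 0.75), an adaptor of ubiquitin ligases, Sgk1 (r = 0.74) and Arhgef7 (r = 0.73). They span the 2 ranges of the mice of 15 months, and over the 9 mice of 2 months alone the coefficients were 0.34, -0.02 and 0.32.

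Cdkn1b, the p27 inhibitor that keeps resting cells out of the cycle, was not detected well enough to be compared. Of the 48 probe sets of other organs 22 and 30 were brighter than its 2 probe sets. Probe set 161010_r_at spanned 6.4 to 71.1 at 15 months (median 30.2) and 5.0 to 87.2 at 2 months (median 24.9). Probe set 100278_at spanned 7.1 to 92.8 at 15 months (median 10.8) and 12.6 to 26.4 at 2 months (median 14.9), with 10 of 14 older mice below the lowest younger one and 2 above the highest. Without a filter their log2 changes were -0.12 (95% interval -0.59 to 0.35, adjusted p = 0.917) and -0.08 (95% interval -0.51 to 0.35, adjusted p = 0.937).

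Cdkn1c, the imprinted p57 inhibitor, was highest in the mice with the most choroid plexus transcript. Its signal spanned 50.4 to 424.9 at 15 months (median 108.45) and 48.3 to 241.0 at 2 months (median 90.3), and the ages overlapped. The mean was 134 ± 92.6 at 15 months (SD, n = 14) and 103 ± 55.9 at 2 months (SD, n = 9), a log2 change of 0.28 ± 0.25 (95% interval -0.23 to 0.79, adjusted p = 0.676). At 15 months Ttr was at 3714.1 to 9921.9 in replicates 3, 5, 7 and 11 and at 149.9 to 358.4 in the other 10 mice. Those 4 mice were the 4 highest in Cdkn1c, at 143.1 to 424.9, against 50.4 to 129.4 in the other 10. At 2 months replicate 2 was highest in both, with a Cdkn1c signal of 241.0 and a Ttr signal of 9134.2, and replicate 9 was second in both.

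**Figure D3:**
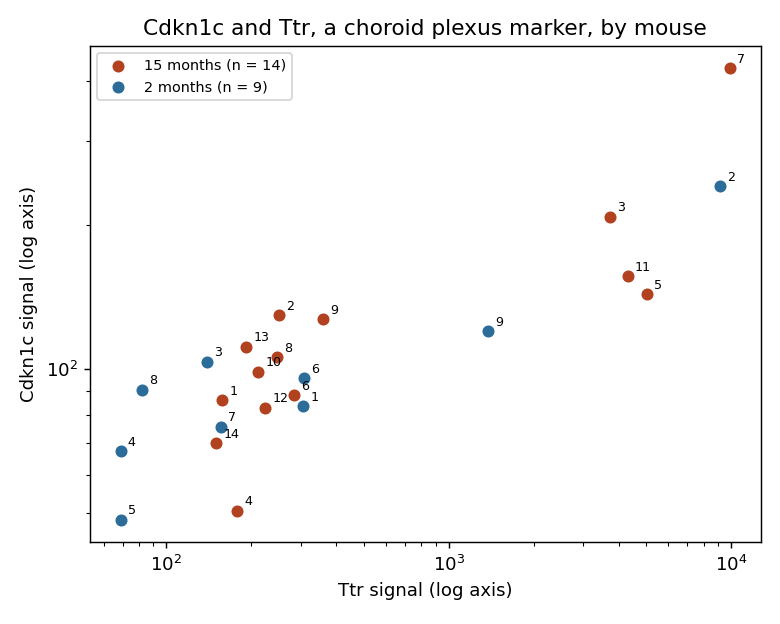
Signal of Cdkn1c against Ttr, both on log axes, 1 point per mouse with its replicate number, at 15 months (n = 14) and 2 months (n = 9). The mice with the most Ttr, 15-month replicate 7 and 2-month replicate 2, also have the most Cdkn1c of their age.

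The genes most like Cdkn1c over 23 mice after the age means were removed were Ttr (r = 0.86), the copper transporter gene Slc31a1 (r = 0.81) and Kl (r = 0.81), the klotho gene expressed in choroid plexus. Each tested probe set was also set against the mean of 5 marker lists within each age, 50 relations in all, leaving out 10 in which values lay in separate ranges (Cdkn1a 94881_at and the choroid plexus list at 15 months). The relation of Cdkn1c with the meninges and fibroblast list at 15 months was the 1 that passed, with r = 0.78 (permutation p = 6.8e-04, adjusted p = 0.034) and r = 0.76 without the 2 mice farthest from the median of the list. Its Spearman's rho was 0.73 (permutation p = 0.00434, adjusted p = 0.113). The relation with the meninges and fibroblast list did not pass at 2 months (r = 0.58, exact permutation p = 0.110, adjusted p = 0.513). There rho was 0.17 (adjusted p = 0.847), and r was -0.83 without the 2 farthest mice. At 2 months the relation with the choroid plexus list had r = 0.91 (exact permutation p = 0.00234, adjusted p = 0.0586), rho = 0.78 (adjusted p = 0.172) and r = 0.66 without the 2 farthest mice. The choroid plexus list mean spanned 7.37 to 9.84 at 15 months and 7.51 to 9.73 at 2 months on the log2 scale. With that mean in the model the log2 change of Cdkn1c was 0.065 (adjusted p = 0.883), and with the meninges mean 0.060 (adjusted p = 0.921). It was 0.15 without 15-month replicate 7, 0.43 without 2-month replicate 2 and 0.18 without 2-month replicate 5.

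Among the INK4 genes, Cdkn2a and Cdkn2b were too dim to be tested. Cdkn2a encodes both p16 and, from another reading frame, the Arf protein that restrains Mdm2, and the annotation does not say which transcript its probe set detects. Its signal spanned 13.4 to 115.0 at 15 months (median 44.2) and 41.5 to 119.5 at 2 months (median 68.2), with 7 of 14 older mice below the lowest younger one. Without a filter the log2 change was -0.50 ± 0.24 (95% interval -1.0 to 0.00, unadjusted p = 0.051, adjusted p = 0.524), and 11 of the 48 probe sets of other organs were brighter. Cdkn2b, the neighbouring p15 gene on chromosome 4, spanned 4.5 to 60.1 at 15 months (median 20) and 6.1 to 38.7 at 2 months (median 11.1). Its log2 change without a filter was 0.18 (95% interval -0.31 to 0.67, adjusted p = 0.874), and 27 of the 48 were brighter.

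Cdkn2c and Cdkn2d were brighter than most probe sets of other organs, of which 4 and 0 of 48 exceeded them, and did not differ beyond the spread between mice. Cdkn2c, the p18 inhibitor, spanned 175.0 to 305.3 at 15 months (median 229.05) and 202.4 to 289.9 at 2 months (median 228.8). Its log2 change was -0.06 ± 0.09 (95% interval -0.24 to 0.13, adjusted p = 0.825). Cdkn2d, the p19 inhibitor and the brightest of the 10, spanned 990.8 to 1305.6 at 15 months (median 1106.85) and 1050.3 to 1307.8 at 2 months (median 1209.7). Its mean was 1143 ± 97.1 at 15 months (SD, n = 14) and 1196 ± 83.7 at 2 months (SD, n = 9), a log2 change of -0.07 ± 0.05 (95% interval -0.18 to 0.05, adjusted p = 0.653). The genes most like Cdkn2d over 23 mice were Phb2 (r = 0.79), Dctpp1 (r = 0.74) and Adprhl2 (r = 0.72), and those most like Cdkn2c were Traf2 (r = 0.70), Ankzf1 (r = 0.69) and Olfr1509 (r = 0.68). For Ankzf1 r was 0.78 at 15 months and 0.39 at 2 months.

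Mdm2, the ubiquitin ligase of p53 and itself a p53 target, was at nearly the same level at both ages. Its signal spanned 352.8 to 552.0 at 15 months (median 430.55) and 321.8 to 580.5 at 2 months (median 418.9). The mean was 432 ± 58.8 at 15 months (SD, n = 14) and 440 ± 91.1 at 2 months (SD, n = 9), a log2 change of -0.01 ± 0.10 with a 95% interval of -0.21 to 0.19 (adjusted p = 0.970). The sign of so small a value turned in 9 of 37 other settings. Of the 7 mice of 15 months highest in Cdkn1a with probe set 94881_at 3 were among the 7 highest in Mdm2. The genes most like Mdm2 over 23 mice were Diaph1 (r = 0.79), Cramp1l (r = 0.75) and Birc6 (r = 0.69). For Birc6 the ages differed, with r = 0.34 at 15 months and 0.98 at 2 months. For Trp53-ps the log2 changes were -0.11 (95% interval -0.35 to 0.13, adjusted p = 0.730) and -0.22 (95% interval -0.48 to 0.04, adjusted p = 0.487). Their median signals were 87.75 and 428.2 at 15 months, against 102.3 and 571.4 at 2 months. Whether these probes also detect transcripts of Trp53 was not tested, and they are not taken as its values.

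**Figure D4:**
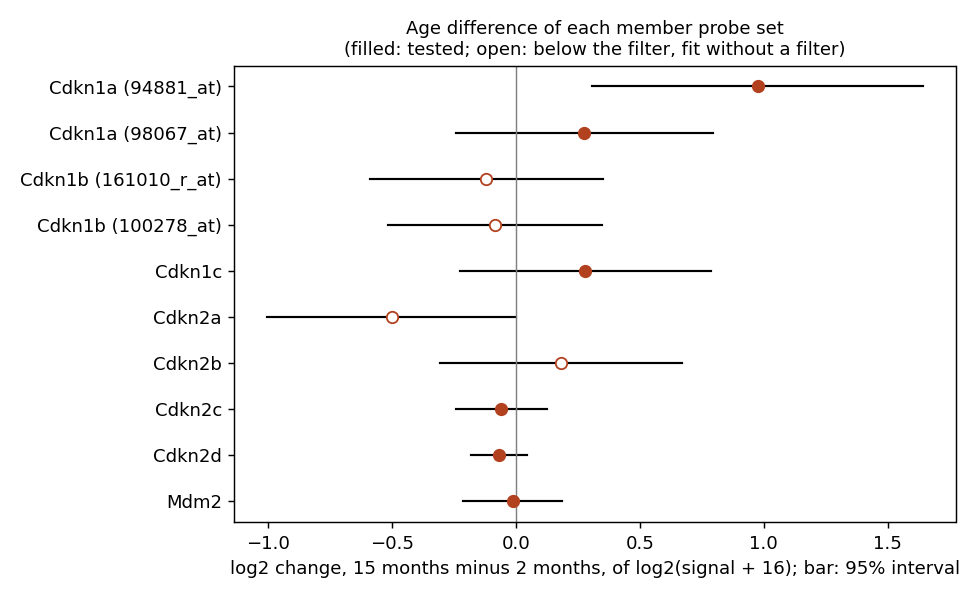
Log2 change, 15 months minus 2 months, of each of the 10 probe sets, with 95% intervals from the limma fit. Filled points were tested and open ones, below the brightness filter, come from the fit without a filter. Only the interval of Cdkn1a (94881_at) lies wholly above 0, and its adjusted p of 0.213 does not pass.

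No p53 target passed the comparison of the ages. Of 42 listed targets other than Cdkn1a and Mdm2, 26 were on the array, 19 were tested and 0 passed in either direction. Of the 19, 13 had log2 changes above 0, with a median of 0.03, beside 45.8% above 0 and a median of -0.01 over all 5680 genes tested. At an unadjusted p under 0.05 there were 2 of 19, against 12.4% of genes, and 24 of the 5680 genes were called. The 3 of lowest p were Apaf1, the scaffold of the apoptosome (0.25 ± 0.09, adjusted p = 0.273), Bid, a pro-apoptotic Bcl2 relative (0.24 ± 0.10, adjusted p = 0.324), and Ercc5, a nuclease of DNA repair (0.20 ± 0.12, adjusted p = 0.504). Apaf1 spanned 236.8 to 475.7 at 15 months (median 311.85) and 228.6 to 325.4 at 2 months (median 261.6), so the ages overlapped. Single targets shared 1 to 7 of the 7 mice of 15 months highest in Cdkn1a with probe set 94881_at, with a median of 4. Of the 19, 1, Sesn1, shared 6 or more, against 3.43% of all genes tested.

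Of 17 tested regulators of p53, such as its activating kinases and ubiquitin ligases, 0 passed, with 8 above 0 (45.8% of all genes), a median of -0.01 and 3 at an unadjusted p under 0.05 (12.4% of all genes). Those of lowest p were Trp53bp1, which binds damaged chromatin (-0.20 ± 0.07, adjusted p = 0.255), Prkdc, a kinase of double-strand break repair (0.28 ± 0.12, adjusted p = 0.336), and Cop1, a ubiquitin ligase (-0.18 ± 0.09, adjusted p = 0.402). A second probe set of Cop1 had a log2 change of -0.09 (adjusted p = 0.716). Trp53bp1 spanned 440.6 to 633.3 at 15 months and 556.2 to 771.5 at 2 months, with 1 of 14 older mice above the 2-month mean.

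The kinases and cyclins that the inhibitors act on, with the Rb and E2F proteins downstream, gave 0 calls among 12 tested genes, with 8 above 0 (45.8% of all genes), a median of 0.03 and 2 at an unadjusted p under 0.05 (12.4% of all genes). Tfdp1, the dimer partner of E2F factors, had the lowest p. It spanned 1467.9 to 2074.0 at 15 months (median 1662.6) and 1114.7 to 1612.4 at 2 months (median 1442.6). All 14 older mice were above the 2-month mean, and the log2 change was 0.25 ± 0.07 (adjusted p = 0.116, or 0.0475 once the 25th percentile of the array was a covariate). A second probe set of Tfdp1 had a change of 0.19 (adjusted p = 0.413). Cdk4, the kinase that INK4 proteins bind, was at 1031 ± 95.9 at 15 months (SD, n = 14) and 1155 ± 83.7 at 2 months (SD, n = 9), a log2 change of -0.16 ± 0.06 (adjusted p = 0.242). A second probe set of Cdk4 had a log2 change of -0.15 (adjusted p = 0.698). Cdk7, of the kinase complex that activates other Cdks, had one of -0.25 ± 0.14 (adjusted p = 0.460).

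No proliferation gene passed. Of 29 on the array 15 were tested and 5 were above 0, against 45.8% of all genes. The median was -0.08, and 3 of 15 had an unadjusted p under 0.05, against 12.4% of genes. Ube2c, the ubiquitin-conjugating enzyme that works with the anaphase-promoting complex, spanned 22.6 to 151.1 at 15 months (median 112.95) and 119.5 to 201.8 at 2 months (median 175.4). All 14 older mice were below the 2-month mean, while the ranges overlapped. Its log2 change was -0.75 ± 0.21 (adjusted p = 0.120). Pcna, the sliding clamp of DNA replication, was 0.20 ± 0.08 higher on the log2 scale (adjusted p = 0.283), and the helicase subunit gene Mcm5 had a change of -0.33 ± 0.15 (adjusted p = 0.384).

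Regulators of the inhibitor genes, Polycomb proteins and transcription factors among them, gave 0 calls in 18 tested genes, with 9 above 0 (45.8% of all genes), a median of -0.003 and 3 at an unadjusted p under 0.05 (12.4% of all genes). Lowest in p were the transcription factor gene Sp3 (0.24 ± 0.09, adjusted p = 0.254), the Polycomb gene Rnf2 (-0.35 ± 0.13, adjusted p = 0.255) and Dmtf1, an activator of Arf (-0.56 ± 0.25, adjusted p = 0.369). A second probe set of Rnf2 had a change of 0.02. Of 34 senescence-associated genes on the array, mostly secreted factors, 11 were tested and 0 passed, with 6 above 0 (45.8% of all genes), a median of 0.06 and 2 at an unadjusted p under 0.05 (12.4% of all genes). Timp2, a metalloproteinase inhibitor (-0.33 ± 0.13, adjusted p = 0.274), Plat, the tissue plasminogen activator (0.28 ± 0.13, adjusted p = 0.372), and Lmnb1, the lamin B gene that is lost in senescent cells (0.18 ± 0.12, adjusted p = 0.537), had the lowest p. The other 23 of these senescence-associated genes were too dim to be tested.

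**Figure D5:**
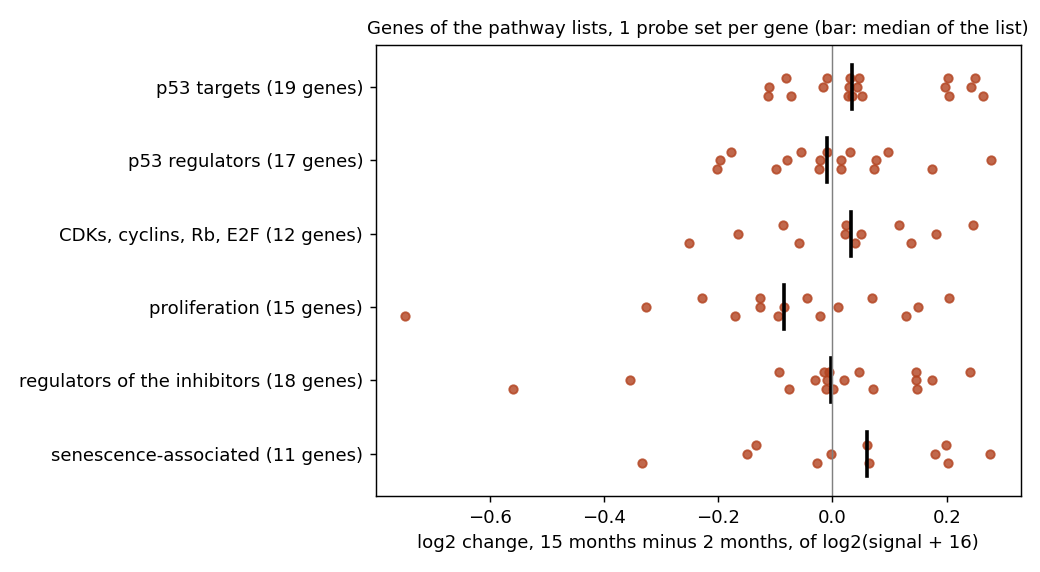
Log2 change, 15 months minus 2 months, of the tested genes of 6 lists around p53 and the inhibitors, 1 point per gene and a bar at each list's median. The medians lie between -0.08 and 0.06 and 0 genes passed the test. Ube2c is the point farthest below 0.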

How the data were processed

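Total RNA from 23 whole hippocampi was hybridised to 1-colour Affymetrix arrays. The submitters' processing notes name MAS5 for the deposited intensities, which are linear signals. No source used here gives its version or settings. The mean after trimming 2% at each end was 499.9 on every array, so no further normalisation was applied. No 2 arrays shared more than 44 values. Running numbers in the titles do not overlap between the ages, so any order they mark and age cannot be told apart. The number of arrays, the spread between mice and, for dim probe sets, the signal limit the precision. Per the series' design text the arrays are biological replicates.

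Signals were analysed as log2(signal + 16), which understates changes of dim genes. limma 3.58.1 in R 4.3.3 (trend and robust variance) compared the ages, two-sided, with Benjamini-Hochberg adjustment over the 7453 probe sets above the 40th percentile. Within mice of an age, correlations used 100000 permutations (15 months) or all pairings (2 months), with scipy 1.17.1, and values with a gap of over 0.3 of their range between at least 3 mice on each side counted as separate ranges, a limit set after the data were seen. The model was checked on simulated data. Genes were named from the platform annotation, and 10839 single-symbol entries matched RefSeq of GRCm38.p6.

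The genes, the lists and the tests were chosen with earlier results of these data known. Named genes are all probe sets of the 9 genes, the called and the 3 lowest-p genes of each of 6 pathway lists, and the 3 genes most like each tested one, with exceptions said. A gene on a list stood for its brightest probe set. Alternatives covered the pseudocount, filter, normalisation, variance model, array weights, test, covariates and each mouse left out.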

Additional observations from a re-analysis of the deposited data

Results flagged for a closer look

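The Cdkn1c signal of 2-month replicate 2 was 241.0, far from the other mice of that age, of which the next was at 119.9. The gap on the linear scale was 0.628 of the whole range, above Dixon's critical value for 9 samples. This Cdkn1c signal was the 1 such value among the 10 probe sets examined on that scale. As log2(signal + 16), the same mouse was at 8.01, the next at 7.09 and the lowest of that age at 6.01. On that log2 scale the gap was a smaller part of the range and lay below the critical value. Chance marks about 1 in 20 groups of normally distributed values. The same mouse had the highest Ttr signal of its age, 9134.2. That test was not applied to the 14 mice of 15 months, of which the highest Cdkn1c signal was 424.9 and the next 208.1.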

How the results depend on the processing

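No tested inhibitor or Mdm2 probe set was called in any alternative run, of which the 60th-percentile filter left only Cdkn2d and Mdm2 to test. The sign of the log2 change of Cdkn1a, Cdkn1c, Cdkn2c and Cdkn2d held wherever it was fitted (35 to 37 settings each), while that of Mdm2 turned in 9 of 37. Of these settings 23 each left out 1 mouse, and another filter, variance model or test cannot alter the log2 change. The count over all probe sets was 28, between 20 and 39 when each mouse was left out in turn, and 60 once the 25th percentile of the array was a covariate. That model also called 1 gene of the 6 pathway lists, Tfdp1, against 0 otherwise and 0 to 0 with a mouse left out. With log2(signal + 64) 2 correlations with marker lists passed, that of Cdkn1c with the choroid plexus list at 2 months being added (r = 0.93, adjusted p = 0.0499). The cause of these moves was not tested. Averaging the Cdkn1a probe sets was chosen after the data were seen. Dim signals limit what can be said of Cdkn1b, Cdkn2a and Cdkn2b. No paired analysis was possible because replicate numbers only name mice within an age.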

Other observations

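Sesn1, a stress-induced sestrin gene that p53 and FOXO factors are known to activate, was chosen after its values were seen. Its signal was 1415.9 to 1833.4 in the 7 mice of 15 months highest in Cdkn1a with probe set 94881_at. It was 1072.4 to 1398.9 in the other 7, while the mice of 2 months spanned 1127.3 to 1551.8. The dimmer Cdkn1a probe set did not single out the same 7 mice. The difference between the ages was small, with a log2 change of 0.04 (limma adjusted p = 0.860). The mean of all 19 tested p53 targets overlapped, at 9.03 to 9.28 on the log2 scale in those 7 mice, 8.98 to 9.16 in the other 7 and 8.99 to 9.15 at 2 months.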
